A study of Mus musculus with 9 samples.

Results

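The genes of ribosome biogenesis and RNA polymerase I transcription described here were given as a list of 39 names, and a gene counted as measured where the deposited FPKM table holds its symbol. The table holds 38 of the 39 among its 23946 genes, and Noc2l is not analysed here. FPKM counts the fragments of a gene per kilobase of its transcript and relative to all mapped fragments, so levels of different genes can be set side by side. The 38 genes were grouped by role into 3 box C/D snoRNP proteins, 4 box H/ACA snoRNP proteins, 6 genes of the RNA polymerase I machinery, 9 of the small subunit processome, 10 of large subunit assembly, 5 abundant nucleolar proteins and cofactors, and the regulator Myc.

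The study sequenced total RNA from mouse CD8 T cells in 3 groups of 3 libraries, 9 libraries in all: wild type (WT), cells whose genotype label reads CTCF-/- (CTCF KO) and cells whose genotype label reads Tcf1-/-Lef1-/- (DKO, where Tcf1 is the protein of Tcf7). The series design lists donors with hCD2-Cre, a recombinase driven by a human CD2 transgene in lymphoid cells, the Cre-activated reporter Rosa26-lsl-GFP, and floxed alleles of Ctcf or of Tcf1 and Lef1. The sort required GFP in WT too, so every group consists of cells with a recombined reporter, which does not by itself show recombination of the floxed genes. Spleen cells depleted of other lineages, CD4+ cells and CD44 high cells spent 72 h in Rag1 KO recipients, which lack B and T cells of their own but keep NK and myeloid cells, and the gate for sorting was CTV+GFP+TCRbeta+CD8+. The source name of every sample calls the cells stim CD8, short for stimulated. The labels give no age, and they do not tie the libraries of a group to separate animals. A p-value here therefore measures the spread between libraries alone, which may be technical.

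Ribosomes are built in the nucleolus. RNA polymerase I, recruited through Rrn3 and Ubtf, transcribes the ribosomal RNA precursor. Box C/D particles methylate that precursor and box H/ACA particles convert uridines in it to pseudouridine, while the small subunit processome and the large subunit assembly factors fold, cut and package it. Myc is known as an activator of genes at all of these stages. T cells are known to enlarge their nucleoli and raise ribosome production when they leave quiescence and divide.

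The genes were abundant in WT, and all 38 passed the filter for testing, which kept the 10172 genes that reached 1 FPKM in 3 or more libraries. The median of their WT means was 53.3 FPKM, against 15.7 over all tested genes. Npm1, which encodes the nucleolar chaperone nucleophosmin, was highest at 714.4 ± 48.2 FPKM (SD, n = 3), followed by Nop56 at 331.8 ± 18.6 and Fbl at 253.7 ± 4.64. In WT 12 genes reached 100 FPKM and 5 lay under 20, the lowest being Utp20 at 6.67 ± 0.72. In all that follows, values after ± are SDs over the 3 libraries of a group, log2 fold changes are differences of mean log2(FPKM + 1), and a gene is called where its limma p-value, adjusted over all 10172 genes, is under 0.05.

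The libraries differed in ways that bear on these genes. Ctcf RNA was not called lower in the libraries labelled CTCF KO, at 20.2, 17.1 and 17.6 FPKM against 18.6, 20.3 and 32.7 in WT (adjusted p = 0.319). In the libraries labelled DKO, Lef1 fell (log2 fold change -1.92, adjusted p = 1.35e-08), while Tcf7 was higher (0.42, adjusted p = 0.000223). A GC index was taken for each library as the mean deviation of the tested genes with the most GC-rich transcript windows (the top 5%), on the log2 scale. It was 0.351 to 0.643 in DKO, -0.341 to -0.059 in CTCF KO and -0.408 to 0.059 in WT, with CTCF KO 1 and WT 3 nearest to DKO. Since the index of every DKO library lay above that of every other library, it and the DKO genotype cannot be told apart. The summed FPKM of 20 genes of G2/M and mitosis was 1437 to 1595 in WT, 564.7 to 603.3 in CTCF KO and 111.6 to 116.7 in DKO. Y-linked genes summed to 90.0 to 100.9 FPKM in CTCF KO, 0.246 to 0.742 in DKO and 0.595 to 2.03 in WT, so the sex of the cells and the CTCF KO genotype cannot be told apart. T cell marker sums were 4027 to 4210 FPKM in WT, 4089 to 4368 in CTCF KO and 4001 to 4198 in DKO. For neutrophil markers the sum was 43.5 to 56.7 FPKM in WT, 15.1 to 18.8 in CTCF KO and 0.841 to 1.56 in DKO, with Elane at 0 in every library. NK cell markers summed to 19.3 to 38.97 FPKM in WT, 4.33 to 9.59 in CTCF KO and 4.74 to 5.59 in DKO. B cell marker sums were 58.2 to 62.2, 34.1 to 37.7 and 99.5 to 117.7 FPKM in the same order, with Pax5 at 0 in every library. Sums of macrophage, dendritic cell and erythroid markers lay between 4.39 and 107.5 FPKM in every library. The GC index was also fitted as a covariate, with the values given below. The part of the other features in the results was not tested.

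**Figure D1:**
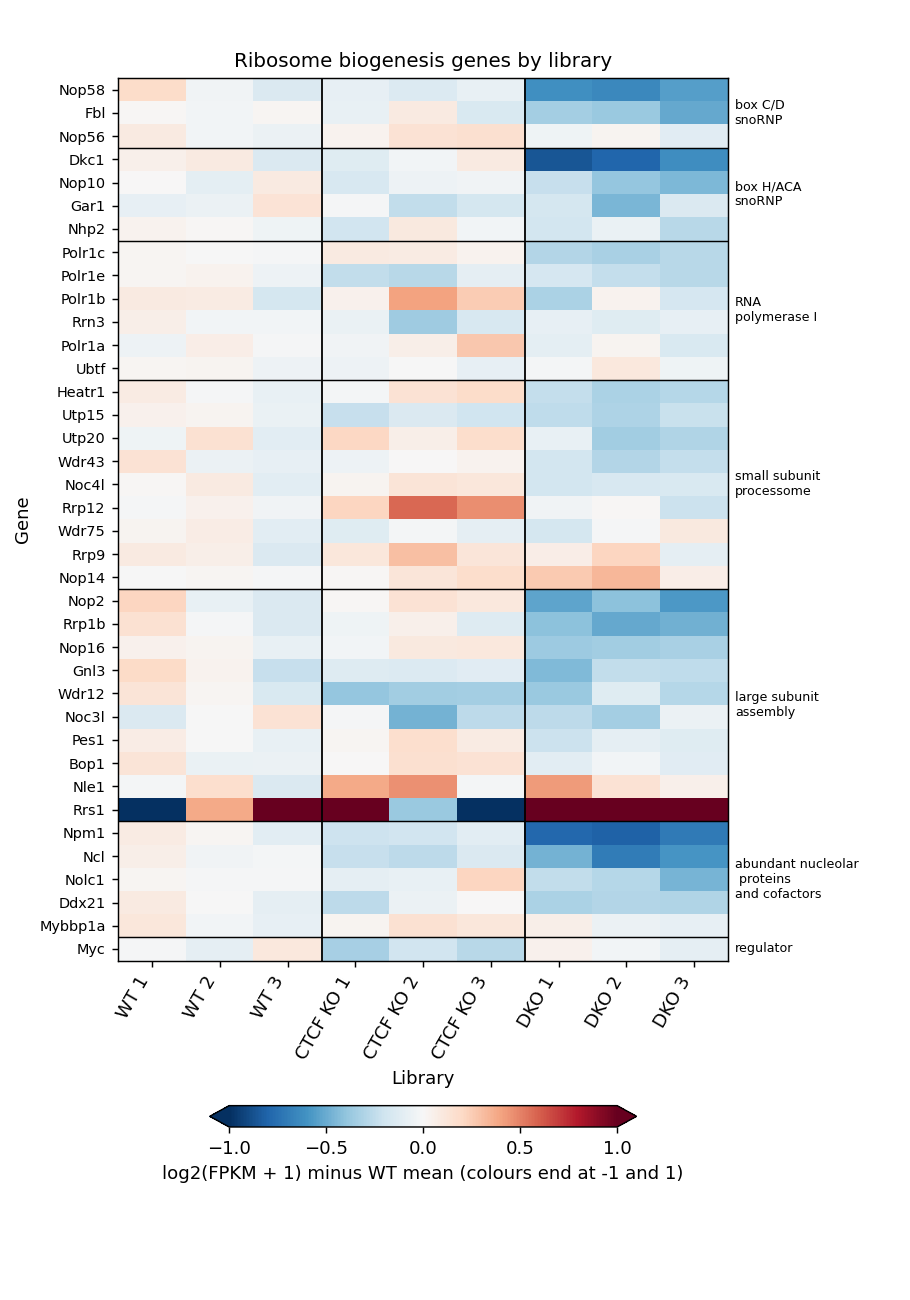
Each row is 1 of the 38 genes, grouped by role, and each column 1 library; colour is log2(FPKM + 1) minus the WT mean of that gene, with colours ending at -1 and 1. The DKO columns are blue for Npm1, Ncl, Nop58, Fbl, Dkc1 and Nop2, while Rrs1 runs from the lowest to the highest colour within WT and within CTCF KO.

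Many of the genes had lower FPKM in DKO. FPKM is relative to all mapped fragments of a library, so it does not give the amount of RNA per cell. Against WT, limma called 17 of the 38 lower and 0 higher (20 and 1 at an unadjusted p under 0.05), which is 44.7% lower, beside 21.9% of all tested genes called lower and 18.5% called higher. The median log2 fold change of the 38 was -0.23, against 0.01 over all tested genes, and 33 of the 38 had a negative and 5 a positive sign, beside 49.2% and 50.8% of all tested genes. The called falls lay between -0.76 and -0.24 with a median of -0.35, and 4 reached 1.5-fold on this scale, namely Npm1, Dkc1, Nop58 and Ncl. The 38 genes together summed to 3891.5, 3697.5 and 3577.2 FPKM in the WT libraries and to 2996.4, 3012.2 and 2926.9 in DKO, or 0.528% to 0.554% of all FPKM against 0.459% to 0.472%. All libraries of DKO were lower in this sum than each WT library. In bulk RNA, fewer cells of a type and less RNA per cell cannot be told apart.

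Among the abundant nucleolar proteins, 4 of 5 fell in DKO. Npm1 (chr11:33052498-33063206; positions are those of the deposited table, which names no build) had 756.9, 724.2 and 662.0 FPKM in WT and 414.5, 407.5 and 437.7 in DKO. The groups were far apart, and the fall was, with that of Dkc1, the largest among the 38 (log2 fold change -0.76, SE 0.06, adjusted p = 1.204e-05). Npm1 alone made up 18.5% to 19.6% of the summed FPKM of the 38 genes in WT and 13.53% to 14.95% in DKO. Mouse Npm1 has processed pseudogenes, and how reads shared with them were counted is not given in the sources used here. Ncl, which encodes nucleolin, an RNA-binding protein of the nucleolus that acts in rRNA transcription and processing, had 140.8, 131.7 and 133.0 FPKM in WT and 97.2, 82.7 and 89.6 in DKO. It too fell without overlap (-0.59, SE 0.069, adjusted p = 0.000172). Nolc1, a chaperone of snoRNPs, had 52.0, 50.9 and 50.6 FPKM in WT and 43.1, 41.7 and 36.8 in DKO (-0.33, adjusted p = 0.021). Ddx21, an RNA helicase of the nucleolus, fell by 0.30 on the log2 scale (adjusted p = 0.0198). Mybbp1a, a Myb-binding nucleolar protein, was the member of this group that was not called, at 99.6 ± 5.32 FPKM in DKO and 101.8 ± 7.32 in WT.

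Of the snoRNP core proteins, 2 of 3 in box C/D and 2 of 4 in box H/ACA were called lower in DKO. Box C/D particles contain Nop56, Nop58 and the methyltransferase fibrillarin, encoded by Fbl. Nop58 (chr1:59741850-59768354) had 164.0, 140.8 and 130.5 FPKM in WT and 94.3, 92.2 and 98.5 in DKO. That fall of 0.60 on the log2 scale (SE 0.080, adjusted p = 0.000374) was larger than the spread of either group. Fbl had FPKM between 248.4 and 256.8 in all 3 WT libraries and 199.9, 196.2 and 177.7 in DKO (-0.41, SE 0.072, adjusted p = 0.00186). Nop56, the partner of Nop58 in the same particle, was not called, and its libraries overlapped at 352.9, 324.7 and 317.8 FPKM in WT and 320.9, 338.3 and 306.2 in DKO. The ratio of Nop58 to Nop56, chosen after the values were seen, was 0.411 to 0.465 in the WT libraries and 0.273 to 0.322 in DKO.

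In the box H/ACA particle, Dkc1, the gene of the pseudouridine synthase dyskerin (chrX:72341193-72376288), had 149.4, 154.1 and 130.7 FPKM in WT and 79.2, 82.9 and 93.7 in DKO. Every DKO library lay below every WT library (log2 fold change -0.76, SE 0.090, adjusted p = 0.000178). Nop10, a small structural protein of this particle, went from 219.3, 204.5 and 233.1 FPKM in WT to 185.9, 167.2 and 159.5 in DKO (-0.36, SE 0.074, adjusted p = 0.00452). The other two core proteins were not called. Nhp2 had 196.6, 192.9 and 186.2 FPKM in WT and 169.2, 182.7 and 158.1 in DKO (adjusted p = 0.107), and Gar1 had 36.6, 37.3 and 42.9 against 34.3, 28.1 and 35.0 (adjusted p = 0.0829). Every DKO library was below every WT library for both, so the missing call does not show that these genes stayed level. Dkc1 relative to Nhp2, a ratio also chosen after the values were seen, was 0.702 to 0.799 in WT and 0.454 to 0.593 in DKO.

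**Figure D2:**
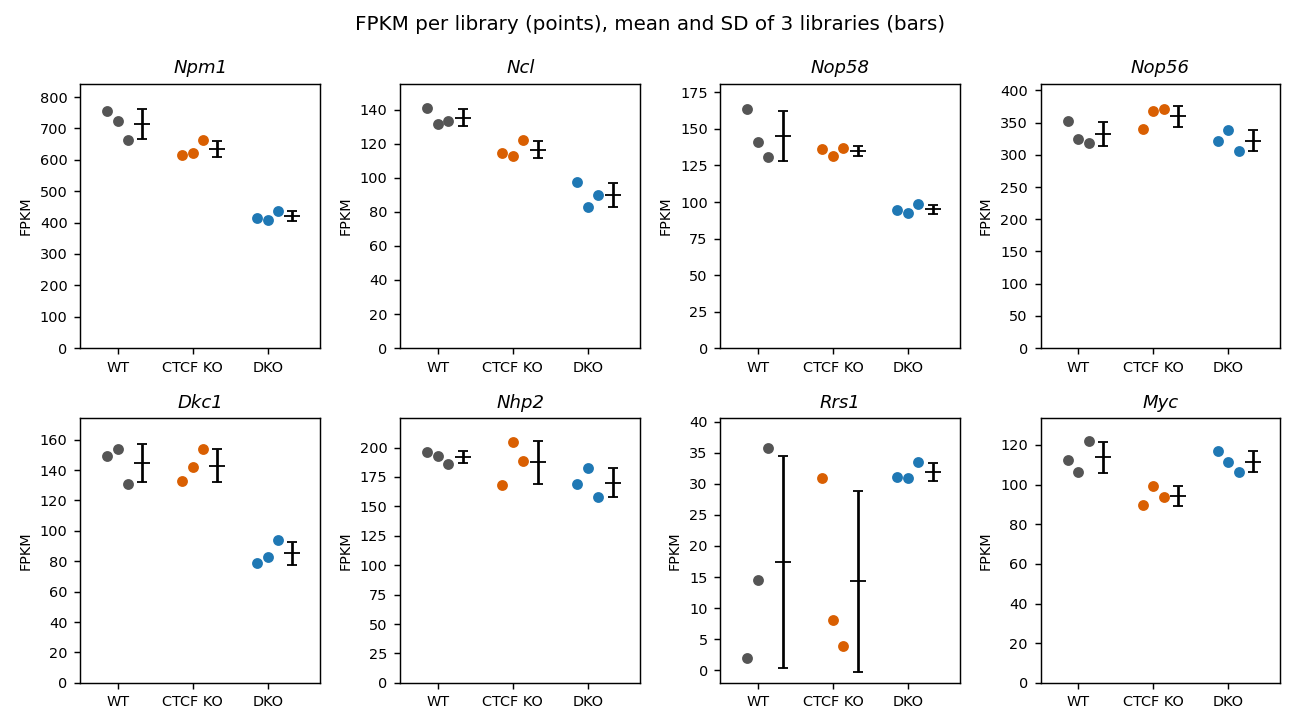
FPKM of 8 genes in each library (points) with the mean and SD of the 3 libraries of each group (bars). Npm1, Ncl, Nop58 and Dkc1 are lowest in DKO without overlap with WT, Nop56 overlaps between WT and DKO, Myc is lowest in CTCF KO, and Rrs1 spreads from 1.95 to 35.7 FPKM within WT.

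Of the 6 RNA polymerase I genes, Polr1c alone was called lower in DKO. Polr1c (chr17:46380869-46384994), a subunit that RNA polymerases I and III share, had 53.0, 52.0 and 51.8 FPKM in WT and 42.5, 41.6 and 42.8 in DKO (-0.30, SE 0.055, adjusted p = 0.00243). Its SD was 0.636 FPKM in WT and 0.649 in DKO, a small spread beside the difference. The largest subunit gene Polr1a had 13.4 ± 0.582 FPKM in WT and 12.7 ± 0.895 in DKO. Polr1e, a subunit that pairs with the initiation machinery, had 20.4 ± 0.679 and 17.2 ± 0.717 FPKM, without overlap between the groups but short of a call (adjusted p = 0.0567). Rrn3, the factor that makes the polymerase competent to initiate, was at 36.4 ± 1.31 and 34.0 ± 0.552 FPKM. Ubtf, the factor that binds ribosomal DNA and keeps it open, was at 54.3 ± 1.67 and 54.9 ± 3.22 FPKM.

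Large subunit assembly held 5 of the falls and the small subunit processome 3. Nop2, an rRNA methyltransferase of the large subunit (chr6:125081901-125094771), had 112.9, 91.8 and 87.7 FPKM in WT and 67.0, 72.7 and 64.7 in DKO (-0.50, SE 0.096, adjusted p = 0.00294). Rrp1b had 26.5, 23.5 and 21.3 FPKM in WT and 17.6, 16.3 and 16.7 in DKO (-0.47, adjusted p = 0.00453). Nop16 had 58.8, 58.4 and 54.3 FPKM in WT and 44.1, 44.6 and 45.5 in DKO (-0.35, adjusted p = 0.00248). None of these 3 genes overlapped between the groups. Gnl3, which encodes the nucleolar GTP-binding protein nucleostemin, fell by 0.32 on the log2 scale (adjusted p = 0.0353). Wdr12, of the complex that it forms with Pes1 and Bop1, had an adjusted p of 0.0499 and libraries that overlapped WT, while Pes1 and Bop1 themselves were not called, at 80.7 ± 3.55 and 84.1 ± 2.80 FPKM in DKO against 89.1 ± 4.61 and 89.3 ± 7.16 in WT. Noc3l and Nle1, at 9.52 ± 1.04 and 8.67 ± 1.06 FPKM in WT, were at 8.02 ± 0.927 and 10.2 ± 1.53 in DKO and were not called.

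The 3 small subunit genes that fell were Heatr1, Utp15 and Wdr43, all components of the complexes that bind the rRNA precursor early. Utp15 had 34.0, 33.6 and 31.4 FPKM in WT and 27.5, 26.4 and 28.1 in DKO (adjusted p = 0.0142). Heatr1 had 30.0, 28.2 and 26.8 FPKM in WT against 23.8, 22.5 and 23.0 (adjusted p = 0.0228), and Wdr43 had 159.8, 138.5 and 136.8 against 127.3, 118.1 and 122.8 (adjusted p = 0.0225). The groups did not overlap for any of them. Rrp12, Rrp9, Wdr75, Utp20, Noc4l and Nop14 were not called. Nop14 was the exception in direction: its DKO libraries, at 46.7, 49.2 and 40.6 FPKM, lay above all WT libraries, at 38.6, 39.3 and 38.4 (adjusted p = 0.0606). Counted by overlap alone, 22 of the 38 genes lay below WT in every DKO library and 1, Nop14, above, beside 27.3% and 26.8% of all tested genes.

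**Figure D3:**
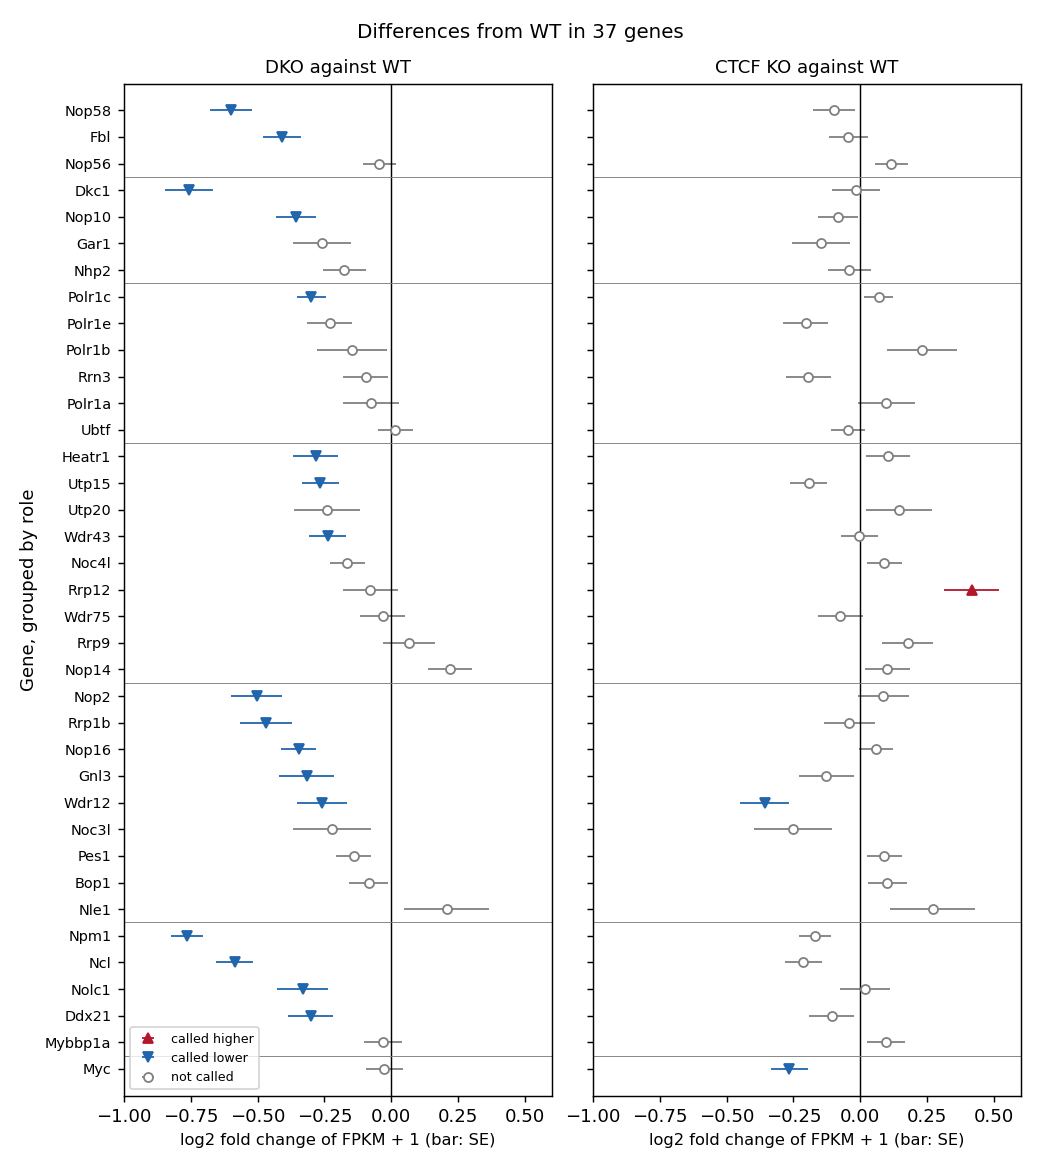
Log2 fold change of each gene but Rrs1 (37 genes; points, with bars of 1 SE) in DKO against WT on the left and CTCF KO against WT on the right; triangles mark calls. On the left 17 points are called lower, from -0.76 for Npm1 to -0.24 for Wdr43; on the right Rrp12 is called higher, and Wdr12 and Myc lower, with the same WT libraries in both panels.

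Fewer of these calls were made under another scaling or with the GC index in the fit. With the index as a covariate, Npm1 was the 1 call that remained (log2 fold change -0.55, adjusted p = 0.00728), 7 of the 38 were lower at an unadjusted p under 0.05, and the count of all tested genes called lower went from 2227 to 618. The fold changes of some genes that lost the call stayed about as large, at -0.43 for Fbl (-0.41 without the covariate), -0.37 for Nop10 (-0.36) and -0.28 for Polr1c (-0.30). Others were smaller, at -0.47 for Dkc1, -0.36 for Nop58 and -0.29 for Nop2, and came near 0 for Wdr43 (-0.02) and Heatr1 (-0.04). With the libraries scaled to the same summed FPKM, 10 genes were called lower and 1 higher (Nop14), a scaling that moved the median of all tested genes to 0.10. The authors' q-values in their deposited table were under 0.05 for 7 of the lower genes (Nop2, Nop58, Ncl, Npm1, Fbl, Dkc1 and Rrp1b), beside 13.6% of tested genes lower, and for Rrs1 in the higher direction, beside 15.4%. Without DKO 3, WT 1 or WT 2 the count of lower genes was 11. Of the 17 genes, 10 kept their call with each of the 9 libraries left out in turn (Nop2, Nop10, Nop16, Nop58, Ncl, Npm1, Fbl, Dkc1, Polr1c and Rrp1b), and the other 7 lost it at least once. As a group the genes were not GC-rich, with a median of 69% GC in the most GC-rich window of 100 bases against 72% over the tested genes, and Ubtf, at 88%, was the 1 gene at 85% or above. WT 3 and CTCF KO 1, the libraries nearest DKO in the index, held the lowest value of their group for 29 and 24 of the 38 genes. The summed FPKM of these libraries was 3577.2 and 3495.0, at an index of 0.059 and -0.059, below the 0.351 to 0.643 of DKO. These values cannot tell the index and the DKO genotype apart. With WT 3 and CTCF KO 1 both left out, 18 genes were called lower in DKO. The WT libraries that remained, at -0.408 and -0.282, lay further from DKO in the index, so this count does not bear on it.

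**Figure D4:**
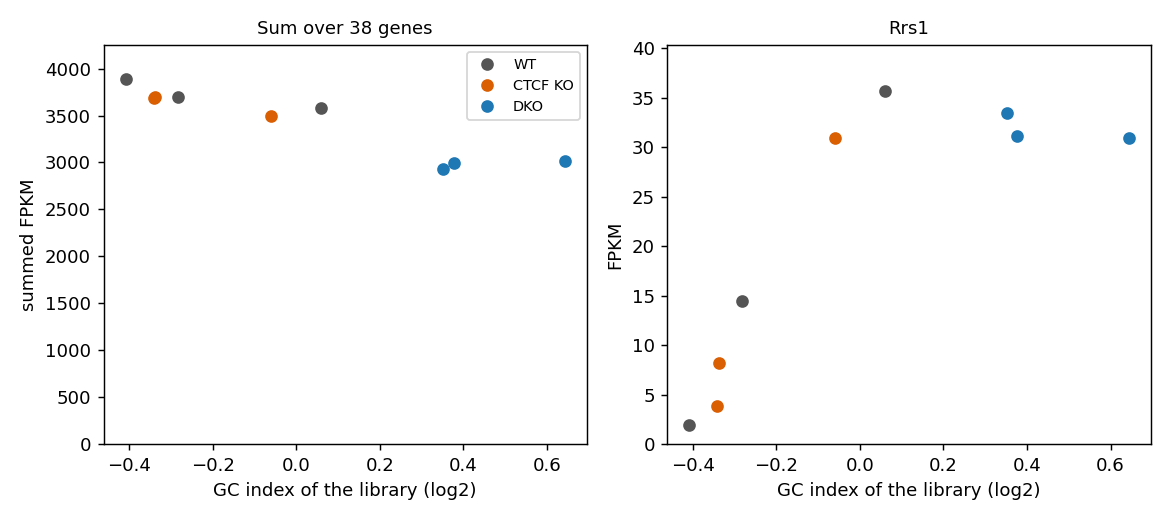
Each point is 1 library; the x axis is its GC index (log2) and the y axis the summed FPKM of the 38 genes (left) or the FPKM of Rrs1 (right). DKO libraries sit at 0.351 to 0.643 on the index and at 2926.9 to 3012.2 summed FPKM; on the right, WT 3 and CTCF KO 1 reach 35.7 and 30.9 FPKM of Rrs1 while the libraries with a lower index lie at 1.95 to 14.5.

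Rrs1, a factor that brings the 5S particle to the large subunit, varied widely within WT and within CTCF KO. It is at chr1:9535489-9537536 and had 1.95, 14.5 and 35.7 FPKM in WT, 30.9, 8.17 and 3.87 in CTCF KO and 31.2, 31.0 and 33.5 in DKO. The DKO libraries lay close together, and the WT and CTCF KO libraries each ran over most of the range. The SE of its log2 fold change was 0.881, against 0.055 to 0.159 for the other 37 genes, and it was called in no comparison (adjusted p = 0.207 for DKO against WT). The authors' deposited table gives a q-value of 0.00133 for the same comparison. Its most GC-rich window had 80% GC, and its level was high in the libraries with a high GC index, a relation given here as a description over 9 libraries that share groups.

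In CTCF KO few of the genes were called. Against WT, limma called 1 gene higher (Rrp12) and 2 lower (Wdr12 and Myc), or 1 and 7 at an unadjusted p under 0.05. The called shares of 2.63% and 5.26% stood beside 5.78% of all tested genes higher and 6.37% lower. The median log2 fold change of the 38 was -0.03, against 0.01 over all tested genes, and 17 were positive and 21 negative, beside 51.0% and 49.0%. The genes that were not called, Rrs1 aside, lay between -0.25 and 0.27. Summed over the 38 genes, the CTCF KO libraries had 3495.0, 3697.6 and 3681.9 FPKM, within the WT range but for CTCF KO 1, which was lower. Without overlap between groups, 3 genes were higher and 6 lower, beside 16.0% and 14.4% of all tested genes.

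Rrp12, a HEAT-repeat protein that acts in export and maturation of the subunits (chr19:41937341-41970643), had 31.8, 33.1 and 31.3 FPKM in WT and 37.3, 48.2 and 44.7 in CTCF KO. It rose by 0.42 on the log2 scale (SE 0.103, adjusted p = 0.0299), and it was the 1 gene of the 38 with a q-value under 0.05 in the authors' deposited table (0.016), beside 3.9% of tested genes higher and 5.57% lower. DKO did not show this, at 31.2, 32.4 and 27.5 FPKM. Wdr12 (chr1:60133712-60210797) had 46.2, 42.6 and 37.9 FPKM in WT and 32.1, 32.8 and 33.1 in CTCF KO, a fall without overlap (-0.36, SE 0.092, adjusted p = 0.0359). Its partners Pes1 and Bop1 had libraries of CTCF KO that overlapped those of WT, and neither was called. Npm1 had 616.3, 623.4 and 662.9 FPKM in CTCF KO, the highest of which just passed the lowest WT library (adjusted p = 0.108). Ncl had 114.7, 112.8 and 121.9 FPKM, below every WT library but short of a call (adjusted p = 0.0813). Dkc1 stood at 132.9, 141.9 and 154.0 FPKM in CTCF KO, overlapping WT (adjusted p = 0.943).

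Myc, the transcription factor upstream of many of these genes (chr15:61816896-61821916), was lower in CTCF KO and not in DKO. It had 112.6, 106.6 and 121.9 FPKM in WT and 89.8, 99.5 and 93.6 in CTCF KO, a difference of -0.27 (SE 0.069, adjusted p = 0.0365). In DKO it had 116.8, 111.4 and 106.5 FPKM, which overlapped WT (adjusted p = 0.789). The direct comparison of CTCF KO with DKO called Myc lower in CTCF KO (-0.24, adjusted p = 0.0228). Each of the 3 calls in CTCF KO against WT was lost when at least 1 library was left out: Rrp12 without CTCF KO 2 or 3 or any WT library, Wdr12 without any CTCF KO library, DKO 3, WT 1 or WT 2, and Myc without CTCF KO 1, CTCF KO 3, DKO 2, WT 1 or WT 3. With the libraries centred on their medians, or with WT and CTCF KO fitted alone, limma called none of the 3, and in each fit 1 of the 38 was higher and 3 or 5 lower at an unadjusted p under 0.05.

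Set directly against each other, CTCF KO and DKO differed in 19 of the 38 genes, 18 of them higher in CTCF KO (47.4%) and Myc lower. Of all tested genes, 21.8% were called higher and 16.2% lower. The median log2 difference of the 38 was 0.19, against 0.02 over all tested genes, and 30 were positive and 8 negative, beside 52.3% and 47.7%. Without overlap, 22 genes were higher in CTCF KO and 2 lower, beside 28.3% and 24.2%. This comparison shares the CTCF KO and the DKO libraries with those above, so it does not add independent libraries. By role, the higher genes were 2 of 3 in box C/D, 2 of 4 in box H/ACA, 2 of 6 in RNA polymerase I, 5 of 9 in the small subunit processome, 4 of 10 in large subunit assembly and 3 of 5 among the abundant nucleolar proteins.

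Dkc1 differed by 0.74 (adjusted p = 0.000247), Npm1 by 0.59 (adjusted p = 7.767e-05), Nop2 by 0.59 (adjusted p = 0.00132) and Nop58 by 0.50 (adjusted p = 0.00119), each without overlap. These 4 genes were also called lower in DKO against WT. Other genes were called here and not in DKO against WT. Polr1b, the second-largest polymerase I subunit, had 22.4, 29.1 and 26.1 FPKM in CTCF KO and 17.3, 22.4 and 19.3 in DKO, a difference of 0.38 (SE 0.131, adjusted p = 0.0456). Its groups nearly touch, and the call was lost without CTCF KO 2, CTCF KO 3, DKO 1, DKO 3 or WT 2. Utp20, a scaffold of the small subunit processome, had 7.47 ± 0.43 FPKM in CTCF KO and 5.49 ± 0.677 in DKO (0.39, adjusted p = 0.034), a call lost without any CTCF KO library, DKO 2 or DKO 3, and with the same summed FPKM. Noc4l, of the same machinery, had 73.5 ± 2.78 and 61.4 ± 0.637 FPKM (0.25, adjusted p = 0.0137), and Pes1 was higher by 0.23 (SE 0.065, adjusted p = 0.0208), a call lost without CTCF KO 2, CTCF KO 3 or DKO 1. Rrp12, which was also called higher in CTCF KO against WT, had 43.4 ± 5.57 FPKM in CTCF KO and 30.4 ± 2.56 in DKO (0.50, adjusted p = 0.00501). Of the 19 calls, 12 were kept with every library left out in turn. None was kept in the fit that includes the GC index, where 4 of the 38 were higher and 0 lower at an unadjusted p under 0.05 and limma called 419 of all tested genes higher and 291 lower. In that fit the difference was 0.39 for Fbl (0.36 without the index), 0.28 for Nop10 (0.27) and 0.34 for Polr1c (0.37), about as large as before, and 0.43 for Dkc1, 0.24 for Nop58 and 0.09 for Noc4l, which was smaller. The authors' deposited q-values were under 0.05 for 9 of the 38 in the higher direction, beside 13.1% of tested genes, and for Rrs1 in the lower, beside 15.0%.

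Promoter sequences were taken from RefSeq windows on GRCm38.p6 that run from 250 bases before to 50 after each start, and 32 of the 38 genes had one. The E-box CACGTG, a motif bound by Myc and other helix-loop-helix factors, occurred in the windows of 7 of the 32 genes (21.9%), against 8.09% of 27025 genes. The 27025 are all genes with a window, expressed in these cells or not, and so differ from the tested genes used above. It reads the same on both strands. The 7 genes were Nop2, Rrn3, Utp20, Pes1, Mybbp1a, Nle1 and Wdr43. The motif lay before the start in Nop2 and Rrn3 and after it, at offsets of 2 to 40 bases, in the others. The motif was in 2 of the 15 genes with a window that fell in DKO and in 5 of the 17 that were not called. The TCF/LEF motif CTTTGAT, searched on both strands, occurred in 1 gene (Noc4l, 3.12%), against 4.29% of all genes. The core of the CTCF motif, also searched on both strands, was in 0 of the 32 and in 0.0407% of all genes. Upstream sequences of 250 bases follow for 4 genes, 5′ to 3′ on the strand that RefSeq gives for the gene. Nop2 holds an E-box and fell in DKO, and Rrn3 holds the motif and was not called. Nop58 and Dkc1 fell further than Nop2 and hold no E-box. Capitals mark the E-box. The sequences lie at chr6:125131633-125131882, chr16:13780449-13780698, chr1:59684756-59685005 and chrX:75095604-75095853, all on the plus strand. As a check, bases 6 to 25 after each start were sought in GENCODE transcripts of the gene. They were found for 31 of the 40 windows of these genes, among them Nop58 and Dkc1, but not for Nop2 and Rrn3. For Nop2 and Rrn3 the start and strand therefore rest on RefSeq alone.
Nop2: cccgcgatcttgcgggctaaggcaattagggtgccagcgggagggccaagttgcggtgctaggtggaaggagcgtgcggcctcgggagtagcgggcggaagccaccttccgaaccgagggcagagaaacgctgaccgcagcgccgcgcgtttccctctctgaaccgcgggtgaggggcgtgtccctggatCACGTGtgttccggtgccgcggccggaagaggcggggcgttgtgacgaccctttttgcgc
Rrn3: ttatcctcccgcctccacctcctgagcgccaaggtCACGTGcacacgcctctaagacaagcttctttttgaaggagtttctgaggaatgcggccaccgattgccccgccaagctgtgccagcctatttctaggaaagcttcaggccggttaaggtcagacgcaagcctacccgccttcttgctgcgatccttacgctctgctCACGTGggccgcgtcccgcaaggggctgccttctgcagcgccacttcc
Nop58: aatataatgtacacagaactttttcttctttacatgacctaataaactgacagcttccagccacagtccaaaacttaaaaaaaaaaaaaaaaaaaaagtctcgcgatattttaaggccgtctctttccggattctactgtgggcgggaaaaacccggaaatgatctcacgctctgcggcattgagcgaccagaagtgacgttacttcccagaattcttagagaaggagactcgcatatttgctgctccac
Dkc1: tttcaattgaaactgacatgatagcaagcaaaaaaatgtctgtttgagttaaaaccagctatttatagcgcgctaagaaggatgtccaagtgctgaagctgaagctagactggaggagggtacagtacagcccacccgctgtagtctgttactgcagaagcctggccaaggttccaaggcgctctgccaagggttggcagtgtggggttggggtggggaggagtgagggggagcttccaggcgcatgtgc
A match describes the letters in the window and is neither a binding site nor a cause.

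Other genes of the same pathway were read from further lists. In 5 lists for the subunit processomes, polymerase I, snoRNP assembly and the exosome, 134 genes were tested. In DKO against WT 30 of them were called lower (22.4%) and 4 higher, beside the 21.9% and 18.5% given above, and their median was -0.13. Without DKO 3 or WT 1 the lower count was 19 and 18, and in the fit that includes the GC index it was 1, Exosc9 (-0.73, adjusted p = 0.043). Part of that loss was of the call and not of the fold, since Rpap3 was at -0.83 in that fit (-0.82 without the index) and Utp14a at -0.37 (-0.39). With the same summed FPKM 15 were called lower and 10 higher. The lower count was 35 with median centring, 53 with array weights and 38 with CTCF KO 1 and WT 3 both left out. Of all tested genes, 2401, 2956 and 2297 were called lower in those fits, against 2227 without these changes. In CTCF KO against WT 3 of the 134 were called higher and 3 lower (2.24% each), beside 5.78% and 6.37% of all tested genes. The higher count was 0 without CTCF KO 2 or WT 2, 3 without WT 1 and 1 without any other library, and the lower count was 1 to 4, at 1 without CTCF KO 2, WT 1 or WT 2 and 2 without CTCF KO 1, CTCF KO 3, DKO 3 or WT 3. Both counts were 0 with a replicate block and 10 with array weights.

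The list closest to the 2 snoRNP groups, 10 tested genes of snoRNP cores and their assembly, had 6 lower and 0 higher in DKO, with a median of -0.34. Of all tested genes, 21.9% were called lower and 18.5% higher in DKO against WT, shares that bear on each list here. Nhp2l1, the protein that nucleates box C/D particles, had 110.0 ± 3.52 FPKM in DKO and 149.3 ± 6.68 in WT (-0.44, adjusted p = 0.000204). Rpap3, of the chaperone complex that assembles snoRNPs, had 17.2 ± 3.21 and 30.8 ± 2.35 FPKM (-0.82, adjusted p = 0.0011), and the ATPases Ruvbl1 and Ruvbl2 of the same assembly were also called lower. None of these genes was called in CTCF KO against WT. In DKO 6 of 44 small subunit genes and 11 of 49 large subunit genes were lower and 0 of either higher, or 13.64% and 22.45% beside 21.9% of all tested genes called lower. Neither share stands out from that of all genes. Among the called genes was Nifk, an rRNA-processing partner of Ki-67, at 78.7 ± 2.36 FPKM against 114.6 ± 10.9 (-0.53, adjusted p = 0.000457). Of 10 genes that host snoRNAs in their introns, 5 were lower in DKO and 0 higher, with Gas5 at 46.6 ± 3.38 FPKM against 58.4 ± 4.95, a call lost with the same summed FPKM and with the GC index in the fit (-0.14, adjusted p = 0.653). The exosome, which trims rRNA precursors, had 3 genes lower and 1 higher of 15, neither a larger share than among all tested genes. Exosc9, among the lower genes, was at 52.8 ± 5.21 FPKM in DKO and 89.6 ± 6.82 in WT (-0.75, adjusted p = 0.000223).

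Of 16 RNA polymerase I factors outside the 38, 3 were called higher (18.75%) and 4 lower (25.0%) in DKO against WT, near the shares of all tested genes, 18.5% and 21.9%. Baz2a, a subunit of the complex that silences ribosomal DNA, had 6.95 ± 0.282 FPKM in DKO and 4.18 ± 0.494 in WT and was called higher (0.62), while Polr2h, a subunit shared by the 3 nuclear polymerases, was called lower (-0.38). For RNA polymerase III, whose transcripts include 5S rRNA and tRNAs, 2 of 21 genes were higher (9.52%) and 4 lower (19.05%), neither above those shares. Maf1, its repressor, was at 319.0 ± 5.13 FPKM in DKO and 234.4 ± 18.2 in WT (0.45, adjusted p = 0.000799), and Polr3b, its second-largest subunit, was at 18.5 ± 0.859 and 29.1 ± 4.20 (-0.62). With the GC index in the fit Maf1 kept its call (0.64, adjusted p = 0.00983), while Polr3b (-0.33, adjusted p = 0.302), Baz2a (0.23, adjusted p = 0.634) and Polr2h (-0.26, adjusted p = 0.424) lost theirs. In the Myc network, 3 of 8 genes were called higher in DKO (37.5%) and 2 lower (25.0%), beside the same 18.5% and 21.9%. Mxd3, a Max partner known from proliferating cells, fell from 42.4 ± 0.543 FPKM in WT to 3.25 ± 1.01 in DKO (-3.38, adjusted p = 5.279e-07) and to 17.9 ± 1.77 in CTCF KO (-1.20, adjusted p = 0.00179). All 20 genes of G2/M and mitosis were called lower in DKO (median -3.48) and in CTCF KO (median -1.20), whose values against WT share the WT libraries.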

How the data were processed

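RNA from 9 libraries was measured, 3 for each of 3 groups named by the genotype labels. The authors deposited FPKM per gene and library and the p-values and q-values of their own comparisons in 1 table of 23946 genes. Per the submitters' processing notes, FastQC, TopHat2 2.1.0 and Cuffdiff 2.2.1 were used with the builds mm9 and mm10. The library scaling, the annotation and strand handling are not given in the sources used here. Of the 38 genes, 1 starts within 1000 bases of its GRCm38 position, so the positions printed are not on GRCm38 and may be mm9, the other build named. No counts are held, so depth is unknown; summed FPKM per library was 629663.5 to 702469.7, and 9613 to 9832 genes reached 1 FPKM. Two-sided tests used limma 3.58.1 in R 4.3.3 on log2(FPKM + 1) with 1 mean per group over the 9 libraries, moderated variances that follow an intensity trend (empirical Bayes), and Benjamini-Hochberg adjustment over 10172 genes. This scale understates folds of genes with low FPKM. The fit was tested on simulated data for DKO against WT. It called 22 of 65 genes changed by 0.5 on the log2 scale and 61 of 71 changed by 1, and made 8 false calls. At folds of 0.5 or less, a missing call therefore does not show that a gene stayed level. The GC index used GENCODE vM21 transcripts and left out the 38 genes. Alternatives were the pseudocounts 0.1 and 0.5, no filter or a mean of 5 FPKM, quantile, median and summed FPKM scaling, no trend, array weights, the GC index as a covariate, the compared groups alone, a replicate block and each library left out. Named genes were all 38, Ctcf, Tcf7, Lef1 and, from each further list and comparison, examples from up to 4 called genes with the smallest adjusted p. The genes and lists were chosen with earlier results of these data known. DKO columns were tied to the group only, because its labels number the libraries in different ways.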

Additional observations from a re-analysis of the deposited data

How the results depend on the processing

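No call of the 38 genes changed sign under any alternative run. CTCF KO against WT held few calls. Its 1 higher gene became 0 with median centring, with the compared groups only and with a replicate block, 2 with the same summed FPKM or array weights, and 0 to 1 with a library left out. Its 2 lower genes became 0 with no filter, no trend, median centring, the compared groups only, a replicate block, the authors' deposited q-values, or CTCF KO 1 and WT 3 both left out (an alternative chosen after seeing the data), 1 with quantile normalization or the same summed FPKM, 5 with array weights, and 0 to 2 with a library left out. Its median of -0.028 became 0.026 without CTCF KO 1 and 0.018 without WT 1 (range -0.036 to 0.026). In DKO against WT, the 0 higher genes became 1 with the same summed FPKM, array weights, the authors' q-values, both libraries left out, and 0 to 1 with 1 left out; the 17 lower became 10 with the same summed FPKM, 1 with the GC index, 7 by the authors' q-values and 11 to 18 with a library left out. Its median of -0.23 became -0.30 with median centring, -0.13 with the same summed FPKM and -0.10 with the GC index. In CTCF KO against DKO, the 18 higher genes became 0 with the GC index, 9 by the authors' q-values and 12 to 20 with a library left out; the 1 lower became 0 with median centring or the GC index, 2 with both libraries left out, and 0 to 1 with 1 left out. Its median of 0.19 became 0.26 with median centring, 0.13 with the same summed FPKM, 0.12 with the GC index, and 0.25 without CTCF KO 1, alone or with WT 3 (range 0.18 to 0.25). Beyond the smaller set of libraries, the cause was not tested. Over all tested genes, DKO against WT called 1886 higher and 2227 lower, 2628 and 1739 with the same summed FPKM, 1447 and 2401 with median centring, and 423 and 618 with the GC index. CTCF KO against WT called 588 and 648, and 95 and 202 with the replicate block. Ctcf, called higher in DKO, was at -0.24 with the GC index. Correlations of the deviations of same-numbered CTCF KO and WT libraries were -0.619, 0.158 and -0.447. No CTCF KO library correlated best with the WT library of its number, while WT 2 correlated best with CTCF KO 2. The highest value, 0.617, was between CTCF KO 1 and WT 3, the libraries nearest DKO in the GC index. Deviations from a mean of 3 libraries are tied to each other, so these values cannot tell whether same-numbered libraries share an animal or a batch. No paired analysis was possible for DKO because its columns carry no settled number. Depth limits cannot be given from FPKM.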

Other observations

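Exosc6, Mlxip and Mxd4, which belong to the further lists and were called higher in DKO, were also raised in WT 3, as Rrs1 was. Exosc6, an exosome subunit, had 32.7, 42.1 and 25.5 FPKM in DKO, 0.534, 0.503 and 12.7 in WT, and 2.59, 1.36 and 0.966 in CTCF KO. Mlxip, a partner of Mlx in the Myc network, had 32.6, 51.1 and 29.4 FPKM in DKO, 2.2, 1.85 and 8.84 in WT, and 3.49, 2.42 and 2.09 in CTCF KO. Mxd4, a Max partner that opposes Myc, had 5.99, 15.6 and 4.65 FPKM in DKO, 0.791, 0.645 and 2.30 in WT, and 0.976, 0.528 and 0.521 in CTCF KO. WT 3 is the WT library with the highest GC index, and with the index as a covariate none of the 3 was called in DKO against WT by limma. The most GC-rich windows of Exosc6, Mlxip and Mxd4 had 83%, 87% and 69% GC, against a median of 72% over the tested genes. Other genes of these lists that were called higher in DKO were mixed. WT 3 was the lowest WT library for Mxi1 (0.896, 0.94 and 0.43 FPKM in WT), Taf1c (19.5, 18.0 and 16.9), Sirt7 (173.7, 169.3 and 156.9) and Maf1 (255.3, 226.4 and 221.5). It was the highest for Baz2a (3.66, 4.23 and 4.64) and the middle library for Polr3gl (13.6, 12.7 and 13.2). The most GC-rich window had 90% GC in Mxi1, 72% in Taf1c, 81% in Sirt7, 77% in Maf1, 68% in Baz2a and 71% in Polr3gl. With the index as a covariate, Maf1 kept its call in DKO against WT, and the other genes in this mixed set lost theirs. The genes in this paragraph were chosen after their values were seen.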
